A study of Pimephales promelas with 12 samples.

Results

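A set of 164 contigs was found at a higher level in the hypothalamus than in the telencephalon for every replicate number in male fathead minnows. The species is a small freshwater fish much used in toxicity testing, and a contig is an assembled sequence that serves here as a transcript. The contigs were chosen by their values. Each had at least 30 raw counts in every hypothalamus library and a level at least 3 times that of the telencephalon library with the same replicate number, for all 3 numbers. The level was the TMM-scaled CPM, the read count relative to the library total after edgeR's correction for library composition. They were 164 of 46309 contigs with a count in any library, and 0.767% of the 21381 contigs that reached the count minimum in the hypothalamus. RNA-seq was run on 12 libraries from untreated adult males of an in-house culture, 3 each from hypothalamus, telencephalon, liver and gut. The methods describe 3 individual fish from which all 4 tissues were taken, and replicate numbers 1 to 3 come from the labels. Fish were killed with the anaesthetic MS-222, and all groups share this handling, since the study had no treatment.

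The hypothalamus is the part of the forebrain that controls hormone release from the pituitary, feeding, stress responses and reproduction. In teleost fish its neurons send axons into the pituitary itself. Many of its cell groups are defined by the neuropeptides they make, which are short secreted signals, and by the enzymes for dopamine synthesis. The telencephalon lies in front of it and holds the regions for olfaction, learning and social behaviour. Both are built from neurons, glia, vessels and linings, so most transcripts are shared between them. Gut and liver are organs of absorption, secretion and metabolism, and the gut also holds endocrine cells that make some of the same peptides as the brain.

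The contigs carry assembly names without gene names, and 0 of the 46309 names matched the 64593 genes of the gene table used (assembly fPimPro1.hap1.1). No function is therefore given to any contig, and the labelled tissues could not be checked against marker genes of hypothalamus, pituitary, telencephalon, glia or blood. Totals were 14546298 to 22589095 counts per library. TMM factors were 1.13 to 1.40 in hypothalamus, 1.28 to 1.37 in telencephalon, 0.917 to 0.937 in gut and 0.616 to 0.682 in liver. A count of 3, used as the floor for a contig without reads, was 0.102 to 0.302 CPM. Contig lengths were not used, so CPM values are read between tissues for the same contig. Where contigs were ordered by CPM, as in the choice of those named, the order was not corrected for length. In whole pieces of tissue, fewer cells of a type and less RNA per cell cannot be told apart.

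The difference that defined the contigs was moderate for most and very large for a few. As a description of the values used in the choice, the lowest of the 3 pair ratios had a median of 4.34 (quartiles 3.52 and 7.34). It lay between 3 and 4 for 65 contigs, between 4 and 6 for 51, between 6 and 10 for 21, between 10 and 30 for 18 and at 30 or above for 9. In these ratios a telencephalon library without a count was set to the floor, which applied to 13 contigs and makes their ratios lower bounds. Only 2 contigs had 0 counts in all 3 telencephalon libraries, and 151 had a count in each of them. The median ratio was 5.83 in replicate 1, 7.80 in replicate 2 and 6.23 in replicate 3, against 0.998, 1.07 and 1.01 over all contigs at the count minimum. At the edge of the choice, the contigs just inside had lowest ratios of 3.02 and 3.03, and those just outside 2.99 and 2.96.

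Contig FHM_All_PTA_Assem.14049.C1 had the largest lowest ratio. The hypothalamus libraries held 660, 878 and 651 of its reads and the telencephalon libraries 0, 1 and 0. The ratio was at least 204 in replicate 1 and at least 199 in replicate 3, and 943 in replicate 2 with its single telencephalon count (95% exact binomial interval 169 to 37270, counting error only). It was also nearly absent from gut, with 1, 0 and 0 counts, and from liver, with 0, 0 and 4. Singlet_3104_R came next, with 273, 366 and 347 hypothalamus counts against 0, 3 and 0 from telencephalon. Its ratio was at least 84.5 in replicate 1, at least 106 in replicate 3 and 131 in replicate 2 (interval 44.5 to 638). Gut had 0, 0 and 1 counts of it and liver 0 in every library, so both contigs were at or near the floor outside the hypothalamus.

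**Figure D1:**
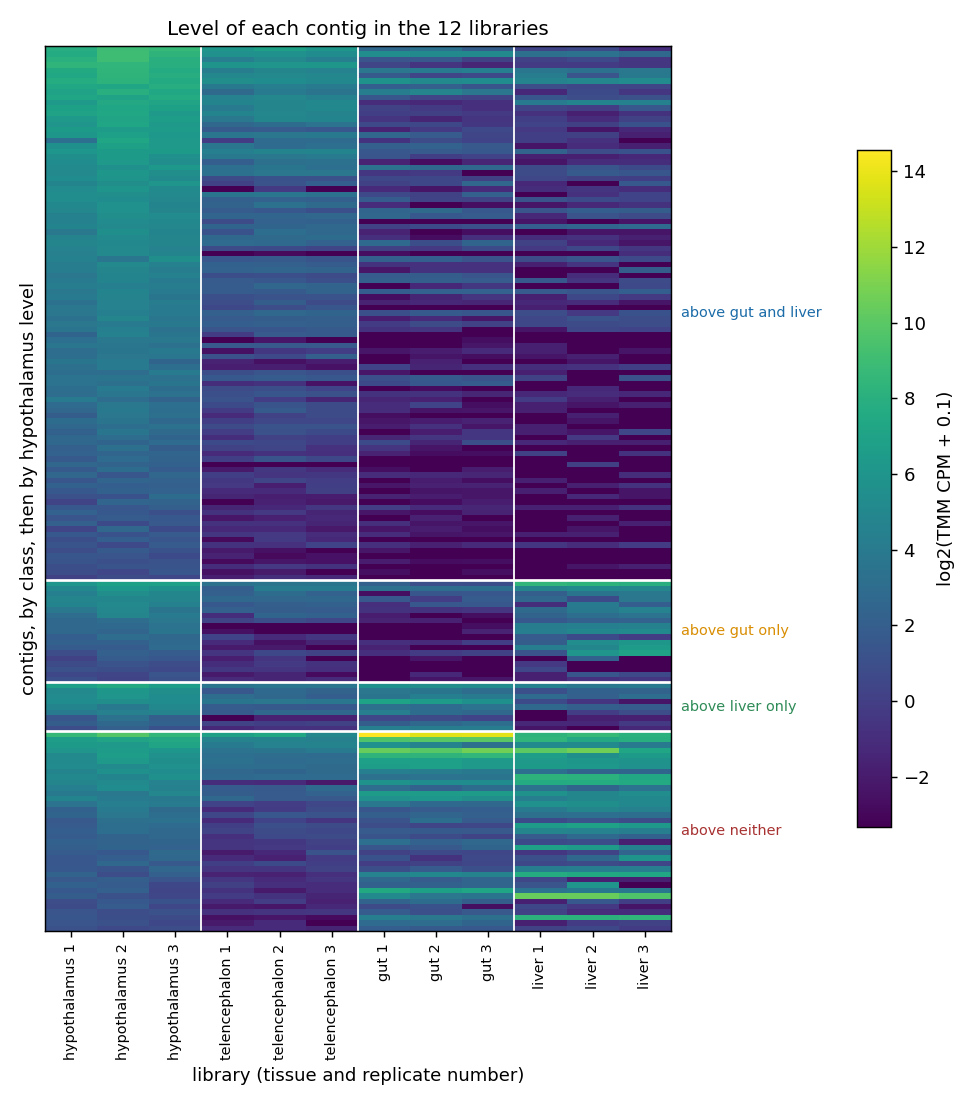
Level of each of the 164 contigs (rows) in the 12 libraries (columns), as log2(TMM CPM + 0.1) by colour, with rows grouped by whether the hypothalamus level was at least 3 times that of gut and of liver in every replicate number. Most of the 99 contigs in the top block are dark (low) in gut and liver, while many of the 37 in the bottom block are bright there.

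Gut and liver entered the choice only through the TMM factors, and the contigs fell into 4 groups by their levels there. With TMM factors from the 6 brain libraries alone, 162 contigs met the rule, all of them among the 164. The same ratio of 3 in every replicate number was used. In 99 contigs the hypothalamus level was at least 3 times that of gut and of liver, in 19 it was so for gut only, in 9 for liver only and in 37 for neither. Among all contigs at the count minimum, 16.6% were at least 3 times above both organs, against 60.4% of the chosen ones. For gut alone the values were 20.7% and 72.0%, and for liver alone 23.1% and 65.9%. The hypothalamus level itself was part of the choice, so these shares are not independent of it. The median mean level over the 164 contigs was 12.2 CPM in hypothalamus, 1.90 in telencephalon, 1.1 in gut and 0.891 in liver. Hypothalamus was the highest of the 4 tissues for 127 contigs, liver for 19 and gut for 18. Telencephalon could not be the highest, since the choice put it below hypothalamus. The corresponding shares over all contigs are not given here, so these numbers are a description. With library size alone in place of TMM, 113 contigs rather than 99 were above both organs. That scaling moves contigs in general towards hypothalamus, by a median of 0.478 on the log2 scale against gut and 0.994 against liver. The share over all contigs at that scaling is not given here.

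**Figure D2:**
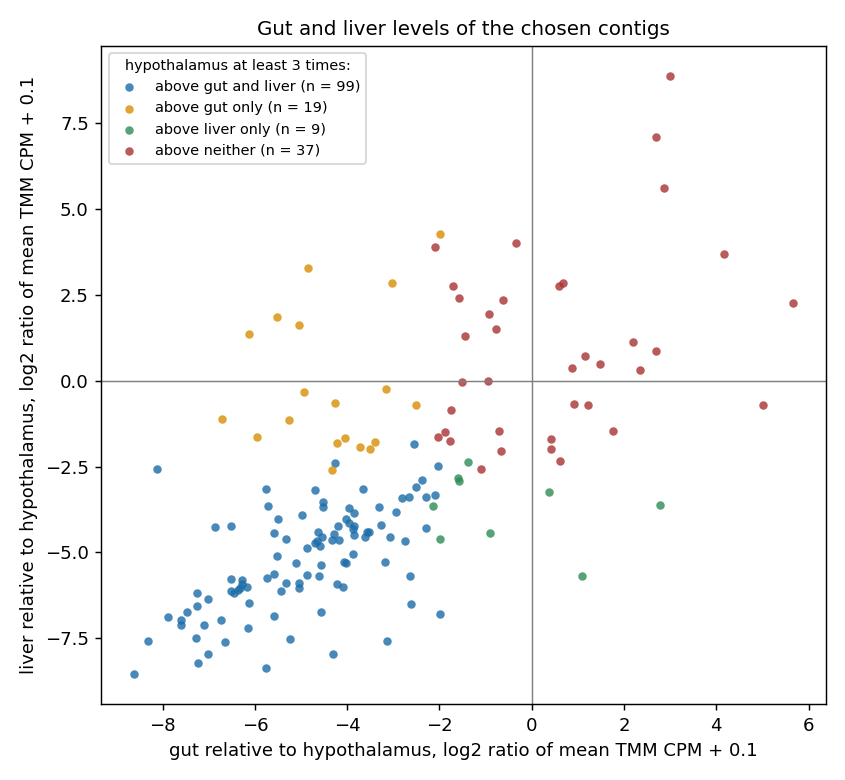
Gut (horizontal axis) and liver (vertical axis) relative to hypothalamus for the 164 contigs, each as the log2 ratio of mean TMM CPM + 0.1, with colours for the 4 groups. Most contigs lie at the lower left, below hypothalamus in both organs, and the 37 contigs above neither organ spread around and past the zero lines.

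The 99 contigs above both organs were low in gut and liver relative to hypothalamus, which the definition of the group fixes. In the medians of these contigs telencephalon came second to hypothalamus. Their median level was 17.4 CPM in hypothalamus, 2.36 in telencephalon, 0.329 in gut and 0.324 in liver. They took up 0.622 ± 0.0876% of the hypothalamus counts (SD, n = 3), 0.0980 ± 0.00903% of those of telencephalon, 0.0206 ± 0.00182% in gut and 0.00969 ± 0.00164% in liver. In 49 of them no gut or liver library held more than 10 counts. Over the whole set this held for 51 contigs, or 31.1%, against 5.31% of all contigs at the count minimum. In the set 5 contigs had no count at all in these 6 libraries, and the share over all contigs is not given here. The contigs named for each group are those with the highest mean CPM in hypothalamus. Their gut and liver values helped to place them in the group, so the tests below describe the named contigs and do not stand for the group.

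For FHM_All_PTA_Assem.2512.C1, hypothalamus gave 6611, 12485 and 9984 counts and telencephalon 1903, 3129 and 1598. Gut gave 111, 198 and 68 counts and liver 12, 15 and 4. Its level fell in steps from hypothalamus, 372 ± 134 CPM (SD, n = 3), over telencephalon, 84.6 ± 25.5, and gut, 6.77 ± 3.35, to liver, 1.02 ± 0.549, and the libraries of neighbouring tissues in this order did not overlap. Gut was above liver by 2.66 on the log2 scale (SE 0.571, adjusted p = 0.0148, quasi-likelihood test of edgeR, Benjamini-Hochberg adjusted over 42878 contigs). This call was lost without gut replicate 2 (adjusted p = 0.0687, same test) and kept with the replicate number as a block (adjusted p = 0.000829). The counts of FHM_All_PTA_Assem.11888.C1 were 6064, 13306 and 8004 in hypothalamus, 1423, 1419 and 934 in telencephalon, 787, 676 and 659 in gut and 97, 108 and 65 in liver. Here telencephalon (48.3 ± 6.39 CPM) and gut (38.6 ± 4.52 CPM) lay next to each other and overlapped, with hypothalamus (350 ± 159 CPM) far above both and liver (8.90 ± 2.08 CPM) below. Gut was above liver by 2.06 on the log2 scale (SE 0.244, adjusted p = 0.00101, same edgeR test).

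The 19 contigs above gut only had widely different liver levels. The ratio of mean hypothalamus to mean liver level ran from 0.0502 to 8.23 over them, with the 3-fold limit missed in at least 1 replicate number. Their median was 7.90 CPM in hypothalamus and 8.37 CPM in liver, against 0.693 in telencephalon and 0.105 in gut, and liver was the highest tissue for 6 of them. The counts of FHM_All_PTA_Assem.16731.C1 were 1959, 2964 and 2705 in hypothalamus, 275, 318 and 268 in telencephalon, 83, 38 and 34 in gut and 3508, 3182 and 2395 in liver. On the CPM scale liver was 3.09 times hypothalamus, which is a difference of hypothalamus minus liver of -1.63 on the log2 scale (SE 0.298, adjusted p = 0.00352, edgeR's quasi-likelihood test). This call was lost with scaling by library size alone (adjusted p = 0.064). Every liver library was above every hypothalamus library in CPM, and gut was the lowest tissue. The counts of FHM_All_PTA_Assem.18045.C1 were 971, 1910 and 1254 in hypothalamus, 110, 440 and 368 in telencephalon, 184, 161 and 160 in gut and 281, 394 and 304 in liver. Its liver level (32.3 ± 5.31 CPM) overlapped that of hypothalamus (52.7 ± 20.9 CPM), with an adjusted p of 0.163 (same edgeR test), and was 3.52 times that of gut (9.17 ± 0.934 CPM). With library size alone, hypothalamus was called above liver for this contig (adjusted p = 0.00254).

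A pair of single sequences in this group, picked out after their values were seen, had nearly the same profile. Singlet_518 gave 189, 173 and 282 counts from hypothalamus and 195, 213 and 230 from liver, with 0 in every telencephalon library and 0, 0 and 1 in gut. Singlet_8085_R gave 187, 140 and 295 from hypothalamus and 201, 304 and 369 from liver, with 2, 0 and 0 in telencephalon and 0, 0 and 4 in gut. Both were thus found in a brain region and in liver and were missing or nearly missing from the other brain region. On the CPM scale liver was 2.58 times hypothalamus for Singlet_518 and 3.66 times for Singlet_8085_R. Whether they belong to a single transcript was not tested.

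The 9 contigs above liver only were in turn found in gut, which the definition of the group largely fixes. Their median was 24.7 CPM in hypothalamus against 11.3 in gut, while telencephalon had 4.90 and liver 0.896, and gut was the highest tissue for 3 of them. The counts of FHM_All_PTA_Assem.2660.C1 were 996, 1776 and 1112 in hypothalamus, 77, 188 and 115 in telencephalon, 239, 229 and 148 in gut and 20, 47 and 50 in liver. Every gut library was above every telencephalon and liver library in CPM, and every hypothalamus library was above those of gut. The counts of FHM_All_PTA_Assem.24807.C1 were 1165, 1631 and 1054 in hypothalamus, 223, 180 and 90 in telencephalon, 214, 394 and 281 in gut and 75, 45 and 82 in liver. Its liver level (6.70 ± 2.06 CPM) was close to that of telencephalon (6.23 ± 2.14 CPM), with gut at 16 ± 4.4 CPM. Gut was above liver by 1.46 on the log2 scale for the first (SE 0.405, adjusted p = 0.041) and by 1.19 for the second (SE 0.341, adjusted p = 0.0465, edgeR's quasi-likelihood test). With the replicate number as a block the adjusted p was 0.0248 for the first and 0.0343 for the second (same edgeR test). Both calls are weak. That of the first was lost without any 1 gut library and without liver replicate 1 or 2, with adjusted p of 0.0571 to 0.131. That of the second was lost without gut replicate 2 or 3 and without any 1 liver library, with 0.0564 to 0.172.

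**Figure D3:**
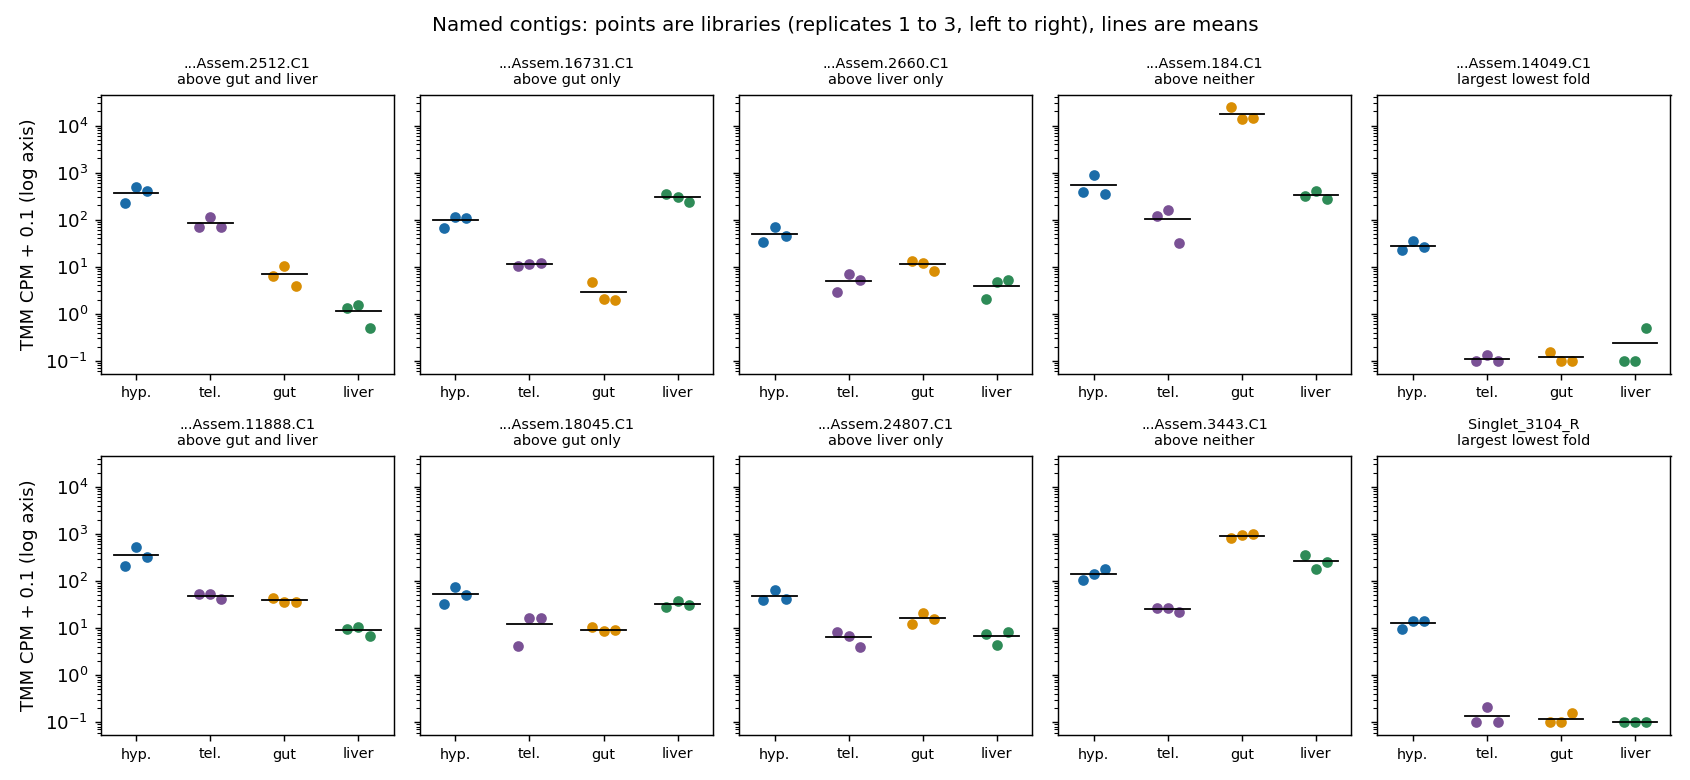
TMM CPM + 0.1 on a log axis for the 10 contigs named by the rule, with hypothalamus (hyp.), telencephalon (tel.), gut and liver on the horizontal axis. Points are the libraries of replicates 1 to 3 from left to right and lines are their means, and hypothalamus lies above telencephalon in each panel while gut and liver differ from panel to panel.

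In the 37 contigs above neither organ, the telencephalon was the tissue that stood apart. It had the lowest mean of the 4 tissues for 35 of them, against 4 of the 99 contigs above both organs. A low telencephalon value was part of the choice, and gut and liver levels set the groups. The contrast between the groups is thus largely built in, and this is a description. The median level was 6.28 CPM in hypothalamus, 0.920 in telencephalon, 6.96 in gut and 23.5 in liver, and the highest tissue was gut for 15, liver for 13 and hypothalamus for 9. Their share of the gut counts was 1.92 ± 0.531%. The 164 contigs held 1.96 ± 0.536% of these counts together, and 0.351 ± 0.0353% without FHM_All_PTA_Assem.184.C1.

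That contig, FHM_All_PTA_Assem.184.C1, had 435358, 262888 and 260400 counts in gut, which is 2.22, 1.26 and 1.35% of those libraries. Hypothalamus held 11143, 22695 and 8937 counts, telencephalon 3184, 4408 and 715, and liver 3170, 4107 and 2777. Gut was 32.2 times hypothalamus in mean CPM, and the lowest gut library was far above the highest of any other tissue. Hypothalamus (542 ± 300 CPM) and liver (332 ± 60.9 CPM) overlapped, with an adjusted p of 0.212 (edgeR's quasi-likelihood test), and with library size alone hypothalamus was called above liver (adjusted p = 0.00392). The counts of FHM_All_PTA_Assem.3443.C1 were 14657, 18147 and 18177 in gut, 3499, 1823 and 2514 in liver, 3127, 3645 and 4458 in hypothalamus and 709, 713 and 511 in telencephalon. Gut was 6.47 times hypothalamus and 37.3 times telencephalon. Hypothalamus minus liver was -0.86 on the log2 scale (SE 0.325, adjusted p = 0.0799, same edgeR test), and its sign turned with library size alone (0.12, adjusted p = 0.789). Liver was called higher by DESeq2 (-1.004, adjusted p = 0.0373) and by edgeR with the filterByExpr filter (-0.95, adjusted p = 0.0482).

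Very abundant gut or liver transcripts had median ratios between the brain regions that were close to even, as did contigs in general. Of 371 contigs with at least 100 CPM in gut, at least 20 times both brain regions and at least 30 counts over the 6 brain libraries, the median ratio of hypothalamus to telencephalon was 1.08 (quartiles 0.878 and 1.39). A ratio of at least 3 was found for 6 of them (1.62%), and 2 belonged to the 164. The corresponding 440 liver contigs had a median ratio of 1.15 (quartiles 0.941 and 1.42), with 10 at a ratio of at least 3 (2.27%) and 3 among the 164. Telencephalon was at least 3 times hypothalamus for 5 of the 371 gut contigs and 3 of the 440 liver contigs. Of all contigs at the count minimum in hypothalamus, 0.767% belonged to the 164, and their median ratio was 1.03. That share is no background for the 371 and 440 contigs, which needed 30 counts only over the 6 brain libraries together. The share of all contigs with a ratio of at least 3 is not given here. These limits were set after the levels had been seen, and no cause was tested with them.

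The comparison of gut with liver used no library that entered the choice, apart from the scaling. Of the 164 contigs, 29 were higher in gut and 28 higher in liver. The background over all 42878 tested contigs was 10.8% higher in gut and 9.01% higher in liver, and the shares of the set were 17.7% and 17.1%. All 164 contigs passed the filter on low counts through their hypothalamus libraries, and 59 of them had under 50 counts in gut and liver together. Of the other 105 contigs, 27.6% were higher in gut and 26.7% higher in liver, against 15.4% and 12.6% of all contigs with at least 50 such counts. The calls thus went in both directions, with a median difference of gut minus liver of 0.05 on the log2 scale over the 164 contigs and 0.05 over all tested ones, and a wider spread in the set (quartiles -1.91 and 1.45, against -0.74 and 1.04). For the 105 contigs with at least 50 counts the median was 0.366, against 0.0798 over all such contigs. Their quartiles were -2.497 and 1.627, against -0.655 and 0.942. The shares were not tested against the background. Scaling by library size alone gave 40 of the 164 higher in gut and 25 of the 164 higher in liver. Both shares were above the backgrounds of 20% and 5.78%. That scaling moves the median of all contigs by 0.58 on the log2 scale towards gut. The number higher in gut was 17 of the 164 without gut replicate 2 and 18 of the 164 without gut replicate 1 or 3. The background was lower in these fits as well (6.84%, 8.54% and 8.09%).

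Against hypothalamus, most of the contigs were lower in gut and in liver, and the shares that were higher in an organ were close to or below the background. In the comparison with gut, 131 contigs (79.9%) were higher in hypothalamus, against a background of 17.9%, and 14 (8.54%) were higher in gut, against 12.5%. In the comparison with liver, 115 (70.1%) were higher in hypothalamus (background 18.5%) and 18 (11%) were higher in liver (background 11.5%). This background includes contigs with few counts. With the filterByExpr filter on low counts, 15 contigs were higher in gut, against 17.3%, and 21 were higher in liver, against 17%. With library size alone 11 were higher in liver, against a background of 6.58%. The 2 comparisons share the hypothalamus libraries, which were part of the choice. Neither the excess towards hypothalamus nor the share higher in an organ is therefore an independent result. The largest excess of liver was that of FHM_All_PTA_Assem.685.C3, named after its values were seen. It had 13911, 13942 and 7740 counts in liver and 629, 254 and 211 in gut, beside 113, 52 and 33 in hypothalamus and 21, 14 and 6 in telencephalon. Its mean liver level was 488 times that of hypothalamus.

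The contigs were often highest in hypothalamus replicate 2, a library that differs from the other 2. That library had the lowest TMM factor of the hypothalamus (1.13) and the fewest listed contigs (38922, against 40462 and 40284). It was the highest of the 3 for 107 contigs, replicate 3 for 39 and replicate 1 for 18. Over all contigs at the count minimum, replicate 2 was the highest for 45.8%, against 65.2% in the set. With library size alone replicate 2 was the highest for 89 of the 164 and for 6876 of the 21381 at the minimum. With DESeq2 size factors the numbers were 116 and 11291. The median ratio of replicate 2 to replicate 1 was 1.51 in the set and 1.08 over all contigs at the minimum in hypothalamus, and 1.17 and 1.06 in telencephalon. Without replicate 2, 240 contigs met the rule, including all 164, since only 2 pairs are then asked for. The same number was highest in both brain regions for 76 of the 162 contigs with a telencephalon count (46.9%), against 41.2% of all contigs at the minimum. The hypothalamus and telencephalon levels compared here were part of the choice, so these values are a description. The part of this library in the levels was not tested beyond these values.

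**Figure D4:**
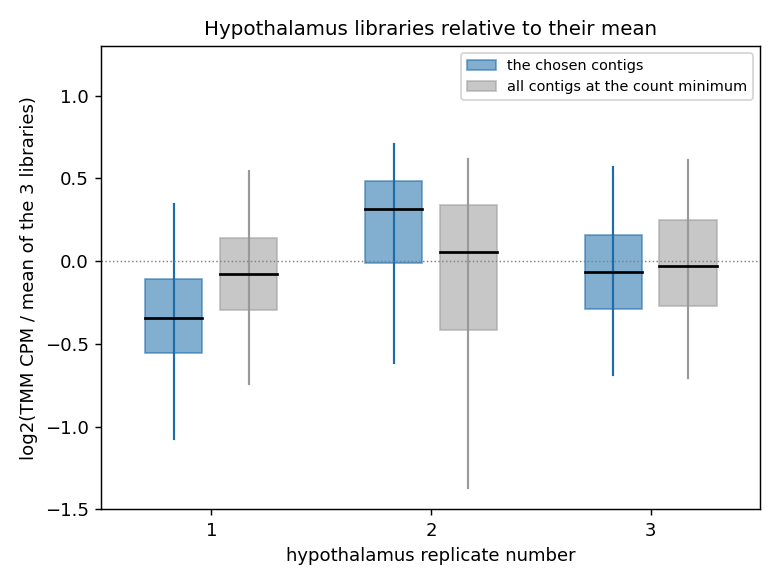
Level of each hypothalamus library relative to the mean of the 3, as log2, for the 164 contigs (blue) and all 21381 contigs at the count minimum (grey). Boxes span the quartiles, black lines are medians and thin lines run from the 5th to the 95th percentile, and the median of the 164 contigs is above 0 in replicate 2 and below 0 in replicate 1.

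Within the set, differences of 10 times or more between the 3 libraries of a tissue were few and mostly seen in liver. Among contigs of the set with at least 100 counts in a library of the tissue, the median ratio of the highest to the lowest library was 1.92 in hypothalamus (144 contigs), 1.40 in telencephalon (66), 1.74 in gut (45) and 1.72 in liver (42). A ratio of at least 10 was seen for 1 contig in hypothalamus, 1 in telencephalon, 0 in gut and 6 in liver. In liver this was 14.3% of the 42, against 5.08% of all contigs at that count, and in gut 0 of the 45, against 4.29%. The median ratio over all contigs at that count was 1.45 in gut and 1.53 in liver. The hypothalamus and telencephalon counts are not set against a background, since the rule asked for a count minimum in every hypothalamus library and a ratio in every pair, which limits such spreads. For example, FHM_All_PTA_Assem.533.CB1 had 10812, 17368 and 1456 liver counts, with 24702, 18588 and 30691 in gut, 1880, 2398 and 1648 in hypothalamus and 304, 325 and 387 in telencephalon. Its low library was liver replicate 3, while the other tissues of that number were not low. The contig with the wide range in hypothalamus was FHM_All_PTA_Assem.4118.C1, with 263, 3960 and 2079 counts there and 22, 211 and 172 in telencephalon. Replicate 1 was the lowest in both regions, and the pair ratios were nevertheless 11.1, 20.2 and 11.1. Both contigs were named after their values were seen.

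Contigs of the same assembly cluster, which are related sequences, mostly leaned the same way between hypothalamus and telencephalon, though not always in gut and liver. The 85 Paracel assembly contigs in the set came from 81 clusters, of which 4 held 2 contigs each. In cluster FHM_All_PTA_Assem.4118, the contig with the wide range above was joined by C3, whose counts were 4791, 3855 and 5605 in hypothalamus against 410, 537 and 359 in telencephalon. This second contig did not share the low value of replicate 1, so these contigs of a cluster did not vary together. In cluster FHM_All_PTA_Assem.2778, which like the first was picked after its values were seen, C1 had 160, 599 and 301 counts against 21, 94 and 76 in telencephalon, and C2 had 2455, 3494 and 2565 against 390, 820 and 621. Gut and liver held none of C1, and 4 to 10 counts of C2 per library. A further 11 contigs of the 81 clusters reached the count minimum without being chosen. Their ratio of mean hypothalamus to mean telencephalon level was 1.05 to 4.44 with a median of 2.67, against a median of 1.03 over all contigs at the minimum. It was at least 2 for 8 of the 11, and for 3.43% of all. Some of the 11 share a cluster, as in FHM_All_PTA_Assem.2078 and FHM_All_PTA_Assem.2248, so they are not independent values. Contigs of a cluster can be variants or parts of the same gene, and uniquely mapped reads can be split between them, so the 164 contigs are not 164 independent genes. FHM_All_PTA_Assem.2248.C4, in the group above both organs, had 7, 6 and 8 gut counts, and C1 of its cluster had 1788, 1774 and 1345. Clusters 8021, 11206 and 1023 also held an unchosen contig far higher in gut than the chosen one. In cluster 1971 the unchosen contig had 0 counts in gut and liver. The groups by gut and liver level thus describe contigs and need not hold for genes.

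Expressed sequence tags, short sequences from earlier cDNA libraries, were more frequent in the set than among all contigs at the count minimum. The set held 52 of them (31.7%, against 16.6%), beside 85 Paracel contigs (51.8%, against 63.1%), 14 single sequences (8.54%, against 10.7%) and 13 PacBio isoforms (7.93%, against 9.25%). Put the other way, 1.47% of the tags at the minimum were chosen, and 0.630% of the Paracel contigs. Among the tags, 3 pairs had consecutive database numbers, and 5 tags next in number to a chosen one reached the minimum without being chosen. Their ratio of hypothalamus to telencephalon was 1.25 to 3.27 (median 1.59). The difference in source was not tested, since tags of a single clone or gene are not independent.

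In the test of hypothalamus against telencephalon itself, which used the same contrast as the choice, 85 of the 164 contigs were called higher in hypothalamus, where the background was 0.252% of 42878 contigs, or 108 in all (edgeR's quasi-likelihood test, adjusted p under 0.05). None was higher in telencephalon, as the choice fixes, where the background was 0.226%. With the replicate number as a block the count was 135, where the background was 0.499%. It fell to between 2 and 83 when a single library was left out. It was 2 without telencephalon replicate 3, 5 and 15 without replicates 2 and 1 of that region, 32 and 25 without hypothalamus replicates 1 and 3, and 83 without hypothalamus replicate 2. The background moved as well, and was, in the same order, 0.00466%, 0.0117%, 0.035%, 0.0793%, 0.0583% and 0.32%. These counts describe how the rule and the test overlap and support neither.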

How the data were processed

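The contigs and the lists were chosen with earlier results of these data known. The authors trimmed reads with cutadapt, aligned with bowtie 2, dropped likely PCR duplicates and reads without a unique place, and deposited raw counts per contig. Tool versions and the mapping build were not given in the sources used here, and the methods name both the study's consensus sequences and zebrafish sequences as the mapping target. Contigs absent from a list were set to 0. TMM factors came from all 12 libraries over the 42878 contigs counted in 2 or more libraries of some tissue. No column of per-sample values was left out (0).

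Each pair of tissues was fitted alone in R 4.3.3 with edgeR 4.0.16 (quasi-likelihood test, Benjamini-Hochberg adjustment over all tested contigs, threshold 0.05), and the tests were checked on simulated data. DESeq2 1.42.0, other scalings, filters and limits, the replicate block and leaving out libraries were alternatives. In every fit, with or without a library left out, the spread of a contig was pooled over both tissues. The SE given with a log2 difference was derived from the test, as the absolute difference divided by the square root of the F statistic. Same-numbered libraries deviated together from their tissue means in all 18 correlations between tissues (0.183 to 0.842), so the numbers were taken to pair the libraries. The rule used this pairing. The main fits, and the adjusted p-values given without mention of the replicate block, did not use it. The methods name 3 fish and do not say which number is which fish. Replicates of a tissue differed well beyond counting noise, with a chi-square per degree of freedom of 15.9 to 92.7. Named contigs are the 2 with the highest hypothalamus CPM in each group and the 2 with the largest lowest ratio. Tags were not named, since their names are database accessions. Marker lists of hypothalamic, pituitary, telencephalic, glial, blood and choroid plexus genes could not be looked up without gene names. Sequences of the contigs were not used here. Since the reads carry no molecular identifiers, intervals and floors cover counting error only.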

Additional observations from a re-analysis of the deposited data

How the results depend on the processing

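The number of contigs that met the rule depended on the ratio asked for more than on the count minimum or the scaling. With a minimum of 10 counts it was 198, and with 100 counts 116. It was 326 with a ratio of 2, 60 with a ratio of 5, and 107 with no replicate block, where the lowest hypothalamus library had to be 3 times the highest telencephalon library. With other scalings it was 152 to 164, of which 150 to 162 belonged to the 164, and with a replicate left out 222 to 240. Of the 164 contigs, 85 were called higher in hypothalamus than telencephalon in the pairwise fit, against a background of 0.252%. The number was 160 by DESeq2 (background 1.13%), 135 with the replicate block (0.499%) and 2 to 83 with a library left out (0.00466 to 0.32%). The number higher in gut than liver was 17 to 24 of the 164 with a library left out, where the backgrounds were 6.84 to 9.38% of all tested contigs. The number higher in liver than hypothalamus was 11 of the 164 with library size alone, a share close to the background of 6.58%. That scaling moves the median of all contigs by 0.99 on the log2 scale towards hypothalamus. The sign of hypothalamus minus liver turned for FHM_All_PTA_Assem.3443.C1 with library size alone (adjusted p = 0.789, edgeR). The replicate block changed no other count by over 1.5 times. Of 308 values of named contigs under the alternatives, 291 kept direction and call, 12 lost the call, 4 gained it and 1 turned. At these depths a level under 0.102 to 0.302 CPM cannot be told from absence.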

Other observations

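The PacBio isoforms, whose names hold their length, were 736 to 2803 bases long in the set of 164 (13 isoforms, median 1111), against a median of 1478 over the 1977 isoforms at the count minimum. Of the 13, 10 rested on 1 full-length read, as did 87.7% of the 1977.

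The rule turned round, with telencephalon at least 3 times hypothalamus in every pair, gave 107 contigs. Of these, 81 (75.7%) were also at least 3 times above both gut and liver, and 7 (6.54%) were above neither organ, against 99 (60.4%) and 37 (22.6%) of the 164. The shares of telencephalon over gut and liver among the 22953 contigs at the count minimum in every telencephalon library are not given here. The 107 contigs thus have no background of their own, and the difference between these shares was not tested.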
